A study of Arabidopsis thaliana with 18 samples.

Results

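A set of 7 genes of nitrate and ammonium uptake and assimilation was followed in leaves of Arabidopsis thaliana in which the immune regulator PAD4 was switched on. They are NRT1.1 (AT1G12110), NIA1 (AT1G77760), NIA2 (AT1G37130), NIR1 (AT2G15620), AMT1;1 (AT4G13510), AMT1;2 (AT1G64780) and GLN2 (AT5G35630, listed as GS2 in the reference annotation). These 7 of the 32678 genes in the table were selected on earlier results of these same libraries, in which several of them were lower after estradiol at 12 h. The values of the 12 h contrast are therefore given below as a description, with no test. Calls of the 7 in it are counted only where the dependence on processing is described, and nothing is read from them. All 7 passed the filter on low counts that left 19227 genes for testing.

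All leaves came from the line ED-P4E1 (ecotype Col-0). In the eds1-2 pad4-1 double mutant it carries 2 transgenes, PAD4 behind a promoter that estradiol switches on and EDS1 behind the 35S promoter, which is active without it. Leaves of plants 4 weeks old, kept at 22 °C with 10 h of light, received a spray of 10 µM estradiol, or of 0.2% DMSO as mock, in both cases with 0.01% silwet-77, and were sampled 6, 12 or 24 h later. Each of the 6 combinations had 3 libraries of polyadenylated RNA, 18 in all. All groups share the transgenes and both mutations. Estradiol was not given here to a line without the transgenes, so effects of the chemical and of PAD4 cannot be told apart. The hour of spraying is not given in the sources used here, and nothing in the labels says whether replicates were separate plantings, so p-values rest on the spread among these libraries only, which may be technical.

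Nitrate enters plant cells through transporters such as NRT1.1, which also senses nitrate. Nitrate reductase (NIA1 and NIA2) converts it to nitrite in the cytosol, and nitrite reductase (NIR1) converts nitrite to ammonium in the plastid. Ammonium from this route, from photorespiration or from outside, carried in by the AMT1 transporters, is built into glutamine by glutamine synthetase, of which GLN2 encodes the plastid form of leaves. Transcripts of this pathway are known to respond to nitrate, sugars, light and the circadian clock.

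Libraries held 19.07 to 48.07 M gene-assigned reads, where M stands for 1e+06. PAD4 counts per 1e+06 reads (CPM, scaled between libraries by TMM) averaged 31.5 ± 2.5 in mock and 215 ± 73.8 after estradiol at 6 h, 16.1 ± 0.219 and 308 ± 40.9 at 12 h, and 18 ± 2.52 and 252 ± 108 at 24 h (SD, n = 3 each). No library was out of place for its label by PAD4. The 4 leaf mesophyll markers summed to between 23200 and 83600 CPM in all libraries, whereas the 3 root markers together stayed at or below 0.105 CPM and the 3 flower markers at or below 2.92 CPM. In whole leaves, fewer cells of a type and less RNA per cell cannot be told apart.

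The 7 genes are spread over 4 chromosomes, and none of them overlaps another protein-coding gene in the RefSeq annotation of assembly TAIR10.1. Overlap with non-coding genes was not examined. Counts came from alignments to TAIR10, and the coordinates below belong to TAIR10.1 only. No 50-base window of any of the 7 transcripts occurs elsewhere in the assembly. The 250 bases before the annotated start are shown for 2 pairs of related genes: AMT1;2 and AMT1;1, the ammonium transporters that moved apart, and NIA1 and NIA2, the nitrate reductases. Each is given on the strand of the gene, 5′ to 3′. Capitals mark the evening element AAATATCT and the related CCA1-binding site AAAAATCT, motifs known to be bound by morning clock factors.
AMT1;2, chr1:24062805-24063054, minus strand: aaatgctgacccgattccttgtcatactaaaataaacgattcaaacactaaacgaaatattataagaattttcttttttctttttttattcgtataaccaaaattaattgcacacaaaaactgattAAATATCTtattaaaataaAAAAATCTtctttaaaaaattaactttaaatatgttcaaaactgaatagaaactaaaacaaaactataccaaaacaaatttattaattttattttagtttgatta
AMT1;1, chr4:7857933-7858182, plus strand: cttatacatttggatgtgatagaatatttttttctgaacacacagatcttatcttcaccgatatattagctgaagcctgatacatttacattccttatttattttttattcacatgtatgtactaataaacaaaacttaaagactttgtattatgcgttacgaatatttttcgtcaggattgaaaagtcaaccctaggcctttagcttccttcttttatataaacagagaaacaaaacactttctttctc
NIA1, chr1:29239485-29239734, minus strand: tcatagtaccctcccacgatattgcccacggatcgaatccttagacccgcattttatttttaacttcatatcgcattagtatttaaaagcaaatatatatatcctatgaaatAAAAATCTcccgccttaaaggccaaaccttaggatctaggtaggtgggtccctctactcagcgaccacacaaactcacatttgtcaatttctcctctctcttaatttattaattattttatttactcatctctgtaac
NIA2, chr1:14158202-14158451, plus strand: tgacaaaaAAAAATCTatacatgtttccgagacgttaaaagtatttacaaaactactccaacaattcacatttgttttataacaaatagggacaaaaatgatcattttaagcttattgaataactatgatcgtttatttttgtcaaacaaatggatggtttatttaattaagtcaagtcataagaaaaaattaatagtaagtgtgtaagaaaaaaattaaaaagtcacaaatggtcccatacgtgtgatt

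Of the 7 promoters, that of AMT1;2 alone held the evening element, 124 bases before the start, and it also held a CCA1-binding site at 105 bases. NIA1 and NIA2 each held a CCA1-binding site, 138 and 242 bases before the start. Searched on both strands, these 8-letter motifs occurred in 4.79% and 6.69% of 27443 promoters of the same length, so 1 of 7 and 3 of 7 are counts without a test. The W-box TTGAC, the core bound by WRKY factors, was in 5 of the 7 (NIA1, NIA2, NIR1, AMT1;1 and GLN2) and in 44.9% of all promoters. The as-1 core TGACG, bound by TGA factors, was in AMT1;1 alone (18.6% of all), the G-box CACGTG in none (6.49%), its core ACGT in 2 (44.1%), the NIGT1 site GAATC in 3 (38.8%), and the core of the nitrate-responsive element in none (0.146%). That last element was searched as GACNCTT and AAG with 10 bases between them. The G-box contains the ACGT core. A match is a run of letters and not a site shown to be used, and these windows are short.

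Levels of the 7 genes differed widely. Per kilobase of annotated transcript, GLN2 was the most abundant in mock leaves at 6 h, with 868 ± 14.6 CPM per kb. It was followed by NIR1 (129 ± 8.41), NIA2 (92.7 ± 5.22), NRT1.1 (25.1 ± 0.526), NIA1 (10.5 ± 0.633), AMT1;2 (4.69 ± 0.38) and AMT1;1 (1.43 ± 0.144 CPM per kb; SD, n = 3 each). The order changed by 24 h in mock leaves, when NIA2 reached 706 ± 70.4 CPM per kb and stood above NIR1 at 323 ± 37.4, and AMT1;2 reached 192 ± 18.6 and stood above NRT1.1 at 157 ± 19.4 and NIA1 at 36.9 ± 8.61. GLN2 was still highest (1470 ± 105) and AMT1;1 still lowest (2.5 ± 0.574 CPM per kb). The plot of each library by gene shows both the spread between replicates and the swing between times.

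**Figure D1:**
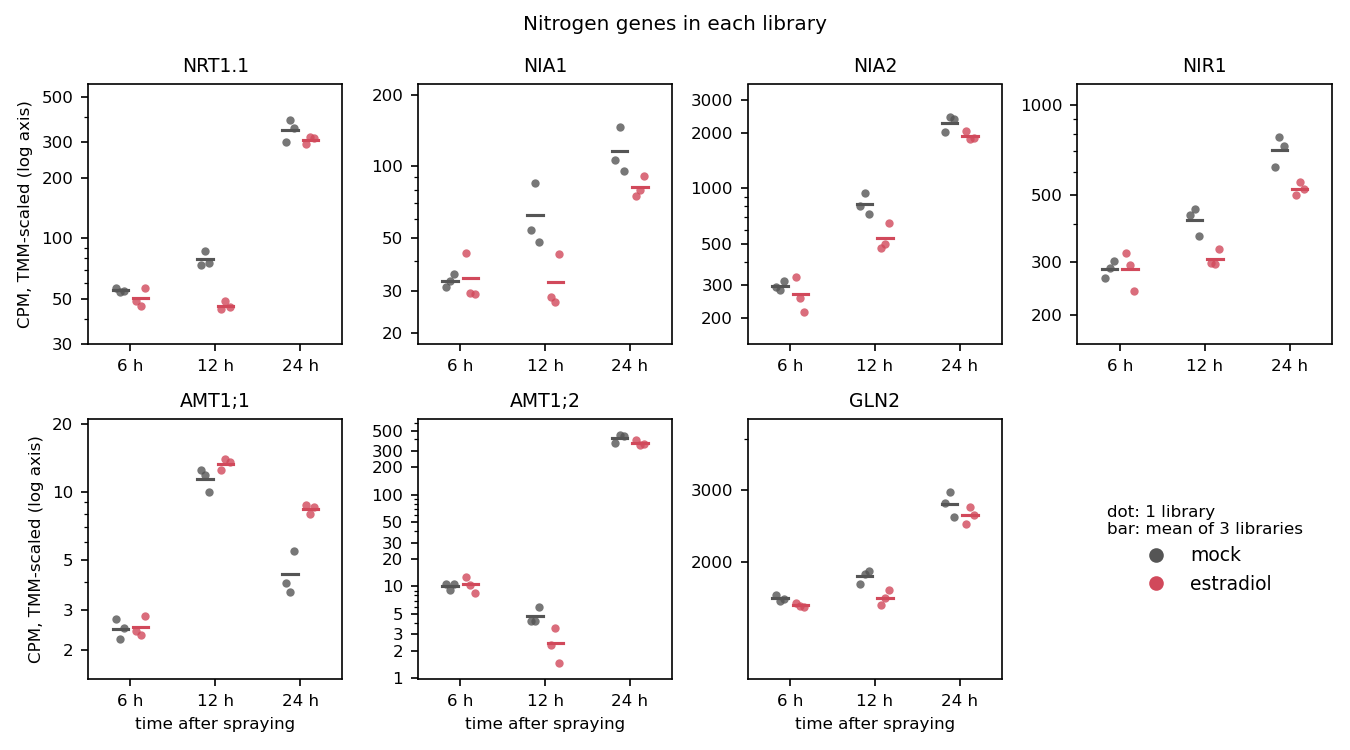
TMM-scaled CPM (log axis, a different range for each gene) of the 7 genes against time after spraying, with 1 dot per library and bars at the mean of 3 libraries. AMT1;2 runs from 1.47 to 441 CPM, and at 24 h the estradiol libraries of AMT1;1 (7.97 to 8.71) lie above all mock libraries (3.58 to 5.46).

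In mock leaves all 7 genes were higher at 24 h than at 6 h. The nitrate side rose 6.27-fold for NRT1.1 (log2 fold change 2.65, SE 0.0917), 3.50-fold for NIA1 (1.81, SE 0.217), 7.62-fold for NIA2 (2.93, SE 0.147) and 2.5-fold for NIR1 (1.32, SE 0.105). On the ammonium side AMT1;2 rose 40.7-fold (5.35, SE 0.18), and AMT1;1 and GLN2 rose 1.72-fold and 1.7-fold. The largest adjusted p among these 7, by edgeR's quasi-likelihood test with Benjamini-Hochberg adjustment over all tested genes, was 0.000167 (AMT1;1). Of all tested genes 34.3% were called higher and 31.9% lower in this comparison, so calls as such were common. AMT1;2 had a larger log2 fold change than 99.9% of tested genes, NIA2 than 98.9% and NRT1.1 than 98.4%.

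The 2 ammonium transporters of the AMT1 family took opposite courses. In mock leaves AMT1;1 was at 2.72, 2.22 and 2.48 CPM at 6 h, at 12.5, 11.8 and 9.97 CPM at 12 h, and at 3.95, 3.58 and 5.46 CPM at 24 h. It was highest in the 12 h libraries, and no library of one time overlapped those of another. AMT1;1 rose 4.59-fold from 6 to 12 h (adjusted p = 1.11e-10) and fell 2.67-fold from 12 to 24 h (adjusted p = 1.1e-08). AMT1;2, known in roots for carrying ammonium in inner cell layers, was at 10.7, 9.22 and 10.6 CPM at 6 h, at 4.21, 4.21 and 6.02 CPM at 12 h, and at 369, 441 and 435 CPM at 24 h. It was lowest at 12 h, when AMT1;1 was highest. AMT1;2 fell 2.09-fold from 6 to 12 h (adjusted p = 8.18e-05) and rose 85.2-fold from 12 to 24 h (adjusted p = 1.04e-15; edgeR in all 4).

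The nitrate reductases and NIR1 rose at both steps. NIA2 went from 293, 282 and 315 CPM at 6 h to 804, 942 and 725 CPM at 12 h and 2005, 2421 and 2364 CPM at 24 h, with no overlap between times. The steps were 2.77-fold (adjusted p = 3.35e-08) and 2.75-fold (adjusted p = 2.09e-08). NIA1 rose 1.88-fold and 1.87-fold, and NIR1 1.46-fold and 1.71-fold. NRT1.1 rose 1.43-fold from 6 to 12 h and 4.39-fold from 12 to 24 h, so most of its swing lay in the second interval. GLN2 had the smallest steps, 1.13-fold (adjusted p = 0.0145) and 1.51-fold (adjusted p = 3.67e-08), all by edgeR. In total 6 of the 7 were called higher and 1 lower from 6 to 12 h, where 33.7% of all tested genes were called higher and 30.6% lower. From 12 to 24 h 6 were called higher and 1 lower, against 35.9% and 39.1% of all genes.

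Scaling between times bears on the small steps. The TMM factors of the 12 h libraries stood apart from those of 6 and 24 h, and with library totals alone the median of all genes lay at 0.461 (log2) for 12 h against 6 h, at -0.632 for 24 h against 12 h and at -0.138 for 24 h against 6 h. From 12 to 24 h the log2 fold change of GLN2 then turned to -0.0132, and those of NIA1 (0.291, adjusted p = 0.187) and NIR1 (0.171, adjusted p = 0.136) were no longer called by edgeR, although all 3 still lay above the median gene. The directions and calls of the other 4 genes between 12 and 24 h, and of all 7 in the other 2 mock comparisons, did not turn on this choice. The call of GLN2 from 6 to 12 h was lost without mock 12 h replicate 3 (0.152, adjusted p = 0.0535) and with DESeq2 size factors (0.133, adjusted p = 0.0535).

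Other measured quantities moved between the same times. Among the clock genes, mock means of CCA1 were 26.3, 0.202 and 524 CPM at 6, 12 and 24 h, and those of LHY were 2.81, 0.287 and 700 CPM; both encode morning factors. PRR5 went through 96.6, 1.33 and 0.177 CPM, and TOC1, an evening factor, through 34.2, 59.0 and 3.8 CPM. With estradiol against mock, none of 9 clock genes was called by edgeR at 6 h. PRR7 was called higher at 12 h (log2 fold change 0.43, adjusted p = 0.00956) and TOC1 at 24 h (0.48, adjusted p = 0.00125), none lower. Of all tested genes 4.64% and 8.43% were called higher there. The effect on TOC1 was larger at 24 h than at 6 h by 0.56 (edgeR adjusted p = 0.00374), as called for 4.03% of all tested genes. The summed leaf mesophyll markers ranged over 52300 to 54900 CPM at 6 h, 25700 to 26800 CPM at 12 h and 70500 to 83600 CPM at 24 h in mock. At the same times the epidermis markers summed to 211 to 224, 176 to 177 and 465 to 502 CPM. The vascular markers summed to 317 to 326, 190 to 206 and 254 to 288 CPM, and the guard cell markers to 57.6 to 59.8, 52 to 54.8 and 56.2 to 58.5 CPM. No marker of these lists was at 0. Single markers did not all follow their sums. At 24 h against 6 h SUC2, the most abundant vascular marker, was lower (log2 fold change -0.30), but APL (0.19), IRX3 (0.73) and XCP1 (0.62) were higher. In the epidermis list FDH (1.52) rose more than ATML1 (0.19). From 6 to 12 h the guard cell marker FAMA rose (0.45), whereas MYB60 and KAT1 fell (-0.43 each). The part of any of these in the time courses or the estradiol effects of the nitrogen genes was not tested.

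**Figure D2:**
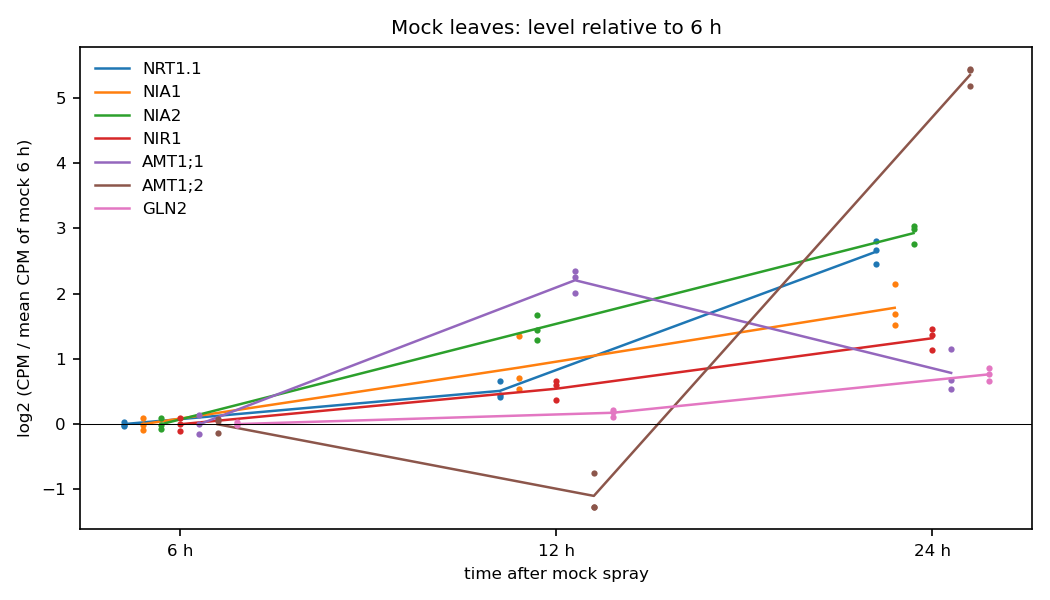
Level of each gene in mock leaves against time after spraying (times evenly spaced), as log2 of CPM over the mean CPM of mock at 6 h, with 1 dot per library and lines through the mean of 3 libraries. AMT1;1 peaks at 12 h, AMT1;2 is lowest at 12 h and highest at 24 h, and the other 5 are highest at 24 h.

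At 6 h after estradiol, when PAD4 was already 6.84-fold higher, none of the 7 genes was called (edgeR, 0.0364% of all tested genes called), and none had an unadjusted p below 0.05 (7.57% of all genes). DESeq2 and limma-voom also called none. The log2 fold changes ran from -0.14 for NIA2 (SE 0.138) to 0.0356 for AMT1;2 (SE 0.183). GLN2 was the only one of the 7 with groups that did not overlap, at 1666, 1612 and 1629 CPM in mock and 1587, 1563 and 1556 CPM after estradiol, with an adjusted p of 0.859. Estradiol libraries were below all mock libraries in 7% of tested genes. A p that misses the threshold does not show equal levels. The SEs ran from 0.0587 (GLN2) to 0.221 (NIA1), and changes of several times that size could have been missed. The pathway gene GDH1, not among the 7, was not called at -0.298 (SE 0.0766, edgeR adjusted p = 0.368).

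At 12 h the values that helped to choose these genes were lower after estradiol for 6 of the 7. NRT1.1 was at 73.9, 87.1 and 75.4 CPM in mock and at 44.8, 48.8 and 45.8 CPM after estradiol, a log2 fold change of -0.76. NIA1 was at 54.1, 85.1 and 48.2 CPM against 28.4, 27.0 and 42.9 CPM (-0.93). NIA2 averaged 823 ± 110 CPM in mock and 543 ± 94.4 CPM after estradiol (-0.60), and NIR1 414 ± 44.2 and 308 ± 20.7 CPM (-0.43; SD, n = 3). The nitrate genes thus had separate groups without exception, with mock replicate 2 the highest mock library for all 4.

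AMT1;2 was at 4.21, 4.21 and 6.02 CPM in mock and at 2.28, 3.56 and 1.47 CPM after estradiol at 12 h (-0.99). These levels are the lowest of its time course, and the estradiol libraries held 48 to 128 reads of it each. GLN2 was at 1767, 1866 and 1905 CPM against 1568, 1636 and 1709 CPM (-0.17). AMT1;1 had overlapping groups, 9.97 to 12.5 CPM in mock and 12.5 to 14.0 CPM after estradiol (0.22). The groups were apart with estradiol lower for 6 of the 7, against 16.9% of all tested genes, and because this contrast helped to pick the genes, nothing is read from that count. The summed mesophyll markers were at 25700 to 26800 CPM in mock and 23200 to 24900 CPM after estradiol at 12 h. Single mesophyll markers differed in this. RCA (log2 fold change -0.39) and CA1 (-0.27) were called lower by edgeR, but RBCS1A (-0.12) and LHCB1.3 (0.14) were not called. The epidermis markers summed to 176 to 177 and 161 to 166 CPM. No marker of these 2 lists was at 0, and their part in the values of the nitrogen genes was not tested. With each of the 6 libraries of 12 h left out in turn, the log2 fold change ran from -1.17 to -0.647 for NIA1 and from -1.33 to -0.762 for AMT1;2.

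At 24 h AMT1;1 was higher and NIR1 lower after estradiol, in a contrast that was tested although earlier results of these libraries were known. AMT1;1 was at 3.95, 3.58 and 5.46 CPM in mock and at 8.71, 7.97 and 8.57 CPM after estradiol, with no overlap. Its means were 4.33 ± 0.997 and 8.42 ± 0.391 CPM (SD, n = 3), a 1.97-fold rise (log2 fold change 0.98, SE 0.136, edgeR adjusted p = 5.74e-05). With each of the 6 libraries left out in turn its adjusted p stayed between 4.34e-06 and 0.000769. Mock leaves had come down from their 12 h level by then, and the estradiol level at 24 h lay between the mock levels of 12 and 24 h.

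NIR1 was at 619, 780 and 727 CPM in mock and at 501, 552 and 525 CPM after estradiol at 24 h. The groups did not overlap, and the means of 709 ± 81.9 and 526 ± 25.2 CPM differed 1.35-fold (log2 fold change -0.43, SE 0.103, edgeR adjusted p = 0.00808). Without mock 24 h replicate 2, the highest mock library, the value was -0.36 with an adjusted p of 0.0547. One gene called higher and 1 called lower, of 7, stand against 8.43% and 6.54% of all tested genes.

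The other 5 were not called at 24 h. NIA1 was at 106, 147 and 95.4 CPM in mock and at 75.5, 80.0 and 90.8 CPM after estradiol, and the groups did not overlap (log2 fold change -0.50, SE 0.208, edgeR adjusted p = 0.117). Groups lay apart with estradiol lower in 14.9% of all genes. NIA2 had a log2 fold change of -0.24 (SE 0.137), AMT1;2 of -0.18 (SE 0.143), NRT1.1 of -0.17 (SE 0.0853) and GLN2 of -0.10 (SE 0.0586), each with overlapping groups. NRT1.1 crossed the threshold without mock 24 h replicate 1 (-0.26, edgeR adjusted p = 0.0401). The median of the 7 log2 fold changes was -0.184, beside -0.0336 for all tested genes. The 3 guard cell markers summed to 56.2 to 58.5 CPM in mock and 45.8 to 52 CPM after estradiol at 24 h, the 4 vascular markers to 254 to 288 and 233 to 244 CPM, and the 3 epidermis markers to 465 to 502 and 415 to 460 CPM, with none at 0. The mesophyll sums overlapped (70500 to 83600 and 67400 to 77400 CPM). Their part in the changes of the nitrogen genes was not tested.

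**Figure D3:**
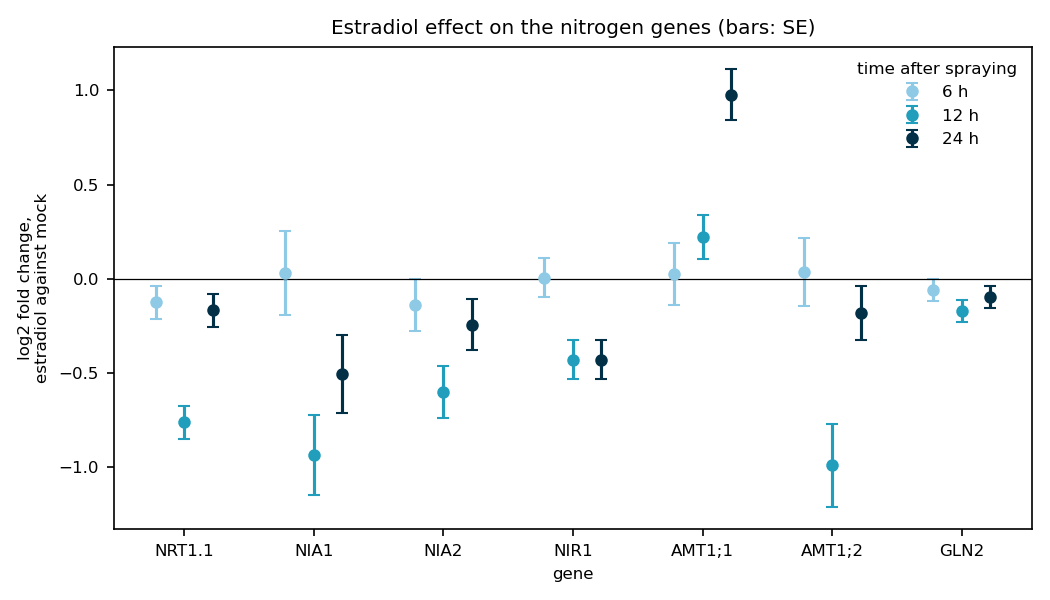
Log2 fold change of estradiol against mock for each gene at 6, 12 and 24 h, with bars for its SE. All 7 lie near 0 at 6 h, 6 are below 0 at 12 h, and at 24 h AMT1;1 stands at 0.98 while NIR1 is at -0.43.

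The estradiol effect on AMT1;1 was larger at 24 h than at 6 h. The difference of the log2 fold changes was 0.95 (SE 0.214, edgeR adjusted p = 0.0108 for the interaction), called higher as were 4.03% of all tested genes, and the adjusted p stayed at or below 0.041 with each of 12 libraries left out. None of the 7 was called lower, against 2% of all genes. For NIR1 the difference was -0.44 (SE 0.146, adjusted p = 0.094 by edgeR). It passed without estradiol 6 h replicate 3 (-0.547, adjusted p = 0.0175) or without mock 24 h replicate 1 (-0.524, adjusted p = 0.0364). Between 12 and 24 h the log2 fold change went from -0.93 to -0.50 for NIA1, from -0.76 to -0.17 for NRT1.1 and from -0.99 to -0.18 for AMT1;2, and it stayed at -0.43 for NIR1. Differences that involve 12 h were not tested.

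From the top, the order of the 6 groups was mock 24 h, estradiol 24 h and mock 12 h for all 4 nitrate genes. Of these neighbours, the 24 h groups overlapped for NIA2 and NRT1.1, and estradiol 24 h and mock 12 h overlapped for NIA1. Among the lower 3 groups, estradiol 12 h stood above both 6 h groups for NIA2 without overlap and for NIR1 with overlap. NRT1.1 had 55.2 ± 1.16 CPM in mock at 6 h, 50.6 ± 5.62 CPM after estradiol at 6 h and 46.5 ± 2.05 CPM after estradiol at 12 h. Neighbours overlapped, but the 12 h estradiol libraries were below all mock libraries of 6 h. NIA1 had 33.2 ± 2 CPM in mock at 6 h, 34.1 ± 8.15 CPM after estradiol at 6 h and 32.8 ± 8.77 CPM after estradiol at 12 h, all overlapping. AMT1;1 was highest in the 2 groups of 12 h, which overlapped, then in estradiol 24 h, mock 24 h and the overlapping 6 h groups. AMT1;2 was highest in the overlapping 24 h groups and lowest after estradiol at 12 h, and GLN2 was highest in the overlapping 24 h groups and then in mock 12 h.

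The 2 nitrate reductases did not keep a fixed ratio. NIA1 gave 10.1 ± 0.415% of the reads of both genes in mock at 6 h, 6.94 ± 1.17% at 12 h and 4.88 ± 0.933% at 24 h (SD, n = 3). After estradiol the shares were 11.2 ± 0.85%, 5.63 ± 0.522% and 4.13 ± 0.537%. Both coding sequences have 2754 bases, so the share per coding length is the same. NIA2 therefore gave most of the reads in every library, and its part was larger at 24 h than at 6 h.

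Beyond the 7, 93 other genes of the pathway in 5 lists were examined, of which 83 passed the filter. At 6 h none of them was called by edgeR, DESeq2 or limma-voom. An unadjusted p below 0.05 (edgeR) was found for 6 of the 83, beside 7.57% of all tested genes. At 12 h 8 of the 83 were called higher and 7 lower, where 4.64% of all tested genes were called higher and 5.07% lower, and the median log2 fold change was -0.0736 (-0.0119 over all genes). At 24 h 9 were called higher and 7 lower, beside 8.43% and 6.54% of all genes, with a median of -0.0584 (-0.0336 over all genes). These calls ran in both directions within the lists, as the plot by list shows. At 12 h the counts depended on single libraries. Left out in turn, mock replicates 1, 2 and 3 gave 3 and 7, 3 and 5, and 4 and 5 higher and lower, and estradiol replicates 1, 2 and 3 gave 2 and 2, 4 and 9, and 7 and 7.

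**Figure D4:**
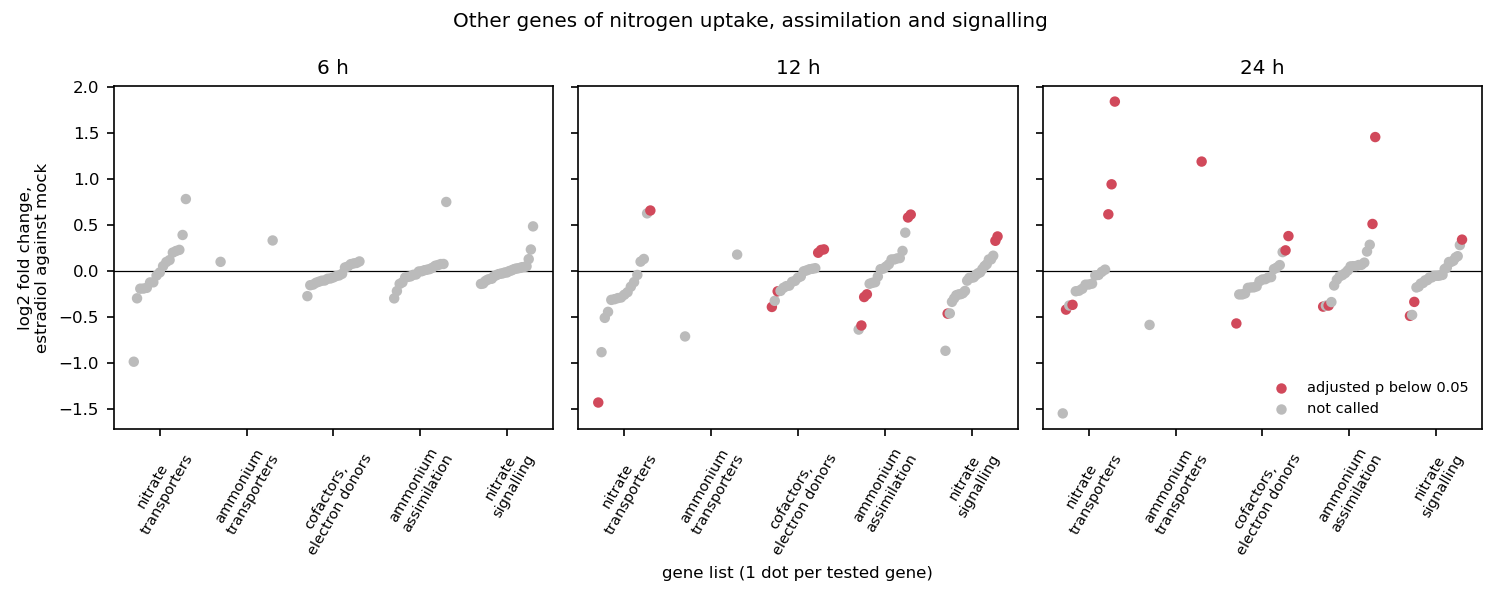
Log2 fold change of estradiol against mock at 6, 12 and 24 h for the 83 other tested genes, 1 dot per gene in 5 lists, with red for an adjusted p below 0.05. No gene is red at 6 h, and at 12 and 24 h red dots lie on both sides of 0.

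Among 17 tested nitrate transporters, NPF6.4 (also NRT1.3) had the largest change at 12 h. It was at 8.32, 8.39 and 10.4 CPM in mock and at 2.94, 4.15 and 3.09 CPM after estradiol, a 2.69-fold fall (log2 fold change -1.43, SE 0.145, edgeR adjusted p = 2.8e-05). NRT3.1, the partner protein that the high-affinity NRT2 transporters need, rose 1.58-fold at 12 h (adjusted p = 0.013) and 1.92-fold at 24 h (adjusted p = 0.00104), by edgeR. Its rise at 12 h was no longer called without estradiol 12 h replicate 1 (0.421, adjusted p = 0.125) or without mock 12 h replicate 1 (0.607, adjusted p = 0.0519). At 24 h 3 nitrate transporters were called higher (NRT3.1, NAXT1, a nitrate exporter, and NRT2.5) and 2 lower (NPF6.2, also NRT1.4, by 0.42 and the anion channel SLAH3 by 0.37 on the log2 scale), of 17, beside 8.43% and 6.54% of all tested genes. NRT2.5, named although its level was below the minimum set for naming, gave only 7 reads in mock and 19 after estradiol over all 3 libraries of each group at 24 h. SLAH3 was not called without mock 24 h replicate 2 or estradiol 24 h replicate 2 (adjusted p up to 0.064), nor NAXT1 without mock replicate 1 or 2 or estradiol replicate 1 or 3 of that time (up to 0.162).

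Of the other 4 ammonium transporters, AMT1;3 and AMT1;5 had no reads in any library, and AMT2;1 and AMT1;4 were tested. AMT2;1, a transporter outside the AMT1 subfamily, was at 7.14, 6.99 and 9.36 CPM in mock and at 20.5, 14.8 and 17.4 CPM after estradiol at 24 h. It rose 2.28-fold (log2 fold change 1.19, SE 0.119, edgeR adjusted p = 1.11e-06). In mock leaves AMT2;1, like AMT1;1, was highest at 12 h, with means of 20.9 ± 0.586, 51.2 ± 0.762 and 7.83 ± 1.33 CPM at 6, 12 and 24 h. Its estradiol effect was larger at 24 than at 6 h by 1.09 (adjusted p = 0.000258 by edgeR). AMT1;4 was at or below 2.2 CPM in every library and was not called at 24 h (log2 fold change -0.59, SE 0.246, edgeR adjusted p = 0.124). Its groups did not overlap there, with estradiol lower, as in 14.9% of all genes. The difference between 24 and 6 h was -0.92 (SE 0.351, edgeR adjusted p = 0.146). In mock leaves AMT1;4, like AMT1;2, fell from 6 to 12 h (log2 fold change -2.89, edgeR adjusted p = 4.35e-07). It rose from 12 to 24 h (3.58, edgeR adjusted p = 6.62e-09).

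In ammonium assimilation, 2 of 20 tested genes were called higher and 2 lower at 24 h, beside 8.43% and 6.54% of all tested genes. GLN1;1, a cytosolic glutamine synthetase, was at 23.7, 17.4 and 25.8 CPM in mock and at 66.2, 41.0 and 73.5 CPM after estradiol. It rose 2.74-fold (log2 fold change 1.45, SE 0.193, edgeR adjusted p = 3.49e-05), whereas its plastid counterpart GLN2 was not called. GDH1, a subunit of the mitochondrial glutamate dehydrogenase, was at 25.5, 20.2 and 24.3 CPM against 32.6, 34.0 and 32.8 CPM and rose 1.42-fold (edgeR adjusted p = 0.000191). The asparagine synthetases ASN2 and ASN3 fell by 0.39 and 0.38 on the log2 scale. The call of ASN2 was lost without mock 24 h replicate 1 or 2 or without estradiol 24 h replicate 1 or 3, with adjusted p values up to 0.146. The effects on GLN1;1 and GDH1 were larger at 24 h than at 6 h by 1.52 and 0.81 (adjusted p = 0.00124 and 0.000129, edgeR). Over all 5 lists 5 of the 83 genes were called with a larger and 2 with a smaller effect at 24 h than at 6 h, beside 4.03% and 2% of all tested genes. Beside AMT2;1, GLN1;1 and GDH1 these were CNX5 (0.50) and CNX1 (0.31), and NPF6.2 (-0.65) and ASN3 (-0.40), the last of which was not called in most alternatives.

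At 12 h the same list of 20 held 2 genes called higher and 3 lower, beside 4.64% and 5.07% of all tested genes. GLN1;1 (0.61) and ASP2, an aspartate aminotransferase (0.58), were higher, and ASN2 (-0.59), the ferredoxin-dependent glutamate synthase GLU1 (-0.28) and GLN1;2 (-0.25) were lower. GLU1 works with GLN2 in the chloroplast. GLN1;1 was lost in all 6 fits without 1 library except the one without estradiol 12 h replicate 3 (adjusted p up to 0.264), GLN1;2 without mock 12 h replicate 3 or estradiol 12 h replicate 1 (up to 0.149), and GLU1 without estradiol 12 h replicate 1 (0.0513). ASP2 and ASN2 were called in all 6.

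**Figure D5:**
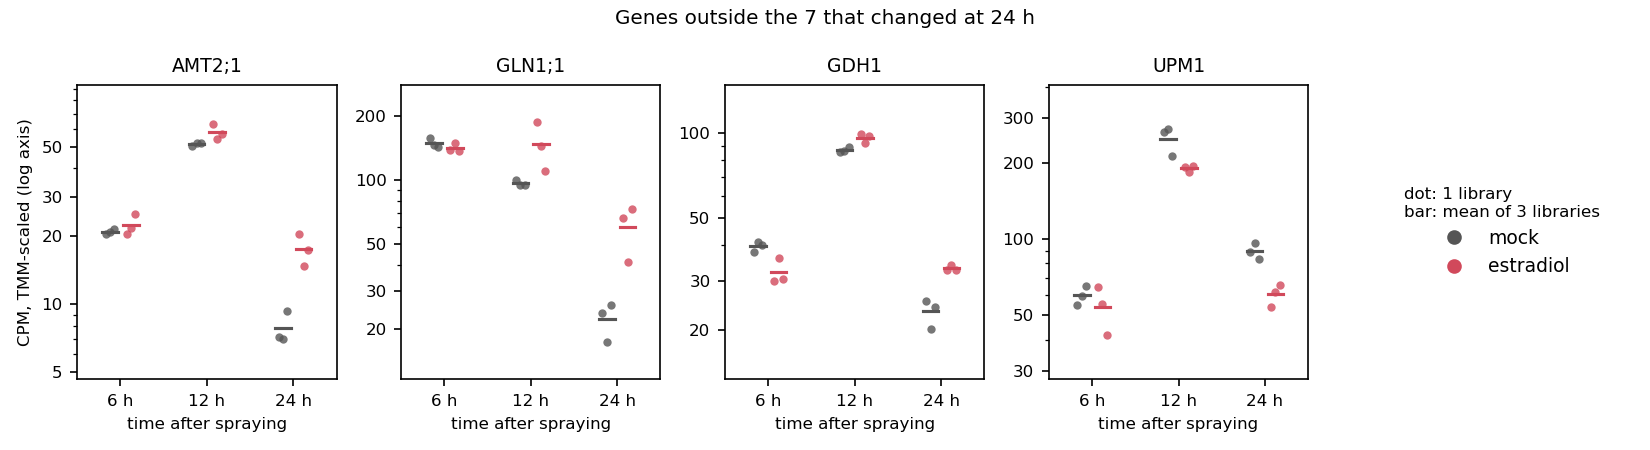
TMM-scaled CPM (log axis, a different range for each gene) of 4 genes called at 24 h that are not among the 7, with 1 dot per library and bars at the mean of 3 libraries. At 24 h the estradiol libraries of AMT2;1, GLN1;1 and GDH1 lie above all mock libraries, and those of UPM1 (53.9 to 65.5 CPM) below them (83.5 to 96.8 CPM).

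Among 19 genes for cofactors and electron donors of the reductases, UPM1, which makes the precursor of the siroheme in nitrite reductase, fell 1.48-fold at 24 h, from 88.6, 96.8 and 83.5 CPM to 53.9, 62.0 and 65.5 CPM (log2 fold change -0.57, SE 0.124, edgeR adjusted p = 0.00398). CNX5 and CNX1, of molybdenum cofactor synthesis for nitrate reductase, rose 1.3-fold and 1.17-fold at 24 h (adjusted p = 0.000482 and 0.00667, edgeR). All 3 were called at 24 h with each library left out. At 12 h UPM1 had a log2 fold change of -0.39 (adjusted p = 0.0459) and was lost in 5 of 6 such fits. Of 25 tested nitrate signalling genes 2 were called higher and 1 lower at 12 h (TCP20, CPK10 and BT2), of which TCP20 and BT2 were lost without mock 12 h replicate 2 or estradiol 12 h replicate 1, and TCP20 also without mock replicate 3 or estradiol replicate 2 of that time, and 1 higher and 2 lower at 24 h. The shares over all tested genes were 4.64% and 5.07% at 12 h and 8.43% and 6.54% at 24 h. The calls at 24 h were CPK10, a calcium-dependent kinase of nitrate signalling (0.34), NLP9, a factor of the NIN-like family (-0.49), and CBL9, a calcium sensor of the kinase CIPK23 that phosphorylates NRT1.1 (-0.34). NLP9 was not called without mock 24 h replicate 3 or estradiol 24 h replicate 3 (adjusted p up to 0.0763), nor CBL9 without these or without estradiol 24 h replicate 1 (up to 0.0725).

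Over the 18 libraries, the profile of log2 CPM most like each of the 7 belonged to other genes that swing between the times. For AMT1;2 these were TDT, the vacuolar malate transporter (Pearson r = 0.997), and SPS1 (0.996). For GLN2 they were GLU1 (0.991) and GAPA, a subunit of the chloroplast glyceraldehyde phosphate dehydrogenase (0.99). For NRT1.1 they were SPL11 and PMI1 (0.994 each), for NIA2 AT5G67385 (0.989), and for AMT1;1 AT1G49050 (0.991), with HAE at 0.988. NIA1 and NIR1 had lower best values, LGO for NIA1 (0.953) and AT1G68238 for NIR1 (0.971), and LGO and AT1G68238 were among the closest 3 of both. These correlations describe 18 libraries that share 3 times and 2 treatments, and no p is given.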

How the data were processed

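The authors deposited raw read counts per gene, whole numbers that were not normalized. HTSeq, TopHat2 (2.0.10), FastQC (0.11.2) and the TAIR10 build are named, per the submitters' processing notes. The strand setting is not given in the sources used here. Reads assigned to no gene (5.76 to 6.71% per library) were left out.

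Counts were fitted with edgeR 4.0.16 in R 4.3.3 (TMM scaling, filterByExpr at its minima of 10 counts and 15 in total, 1 coefficient per group over 18 libraries, 12 residual degrees of freedom, biological coefficient of variation 8.26%). The quasi-likelihood F test was adjusted by the Benjamini-Hochberg method over all 19227 tested genes and called below 0.05. All CPM use the TMM factors, and means and SDs are over the 3 libraries of a group. A log2 fold change has an SE equal to its size over the root of F. Group sizes of 3 limit the precision. Groups and replicate numbers came from the titles. The code was tested on simulated counts.

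The 7 genes and all lists were chosen with earlier results of these data known. All 7 are named in every comparison; of the other lists, up to 4 called genes per list and direction with a mean log2 CPM of at least 0. Of 97 list entries, 4 were left out because the reference table held no name tying them to a locus. Likeness was Pearson's r of log2 (CPM + 0.5). Alternatives were DESeq2 size factors, upper-quartile scaling, no filter, limma-voom (limma 3.58.1), DESeq2 1.42.0, a filter at 1 CPM in at least 3 libraries, a replicate block, only the libraries of the contrast and each library left out. Library totals without TMM were added after the scaling factors had been seen. Promoter windows and coordinates came from RefSeq's TAIR10.1.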

Additional observations from a re-analysis of the deposited data

Results flagged for a closer look

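The estradiol effect on AMT1;1 differed between times by a test of the difference itself. The log2 fold change was 0.0245 at 6 h and 0.98 at 24 h, a difference of 0.954 (SE 0.214, edgeR adjusted p = 0.0108), and all 3 estradiol libraries of 24 h lay above all 3 mock libraries. Of all tested genes 4.03% were called with a larger effect at 24 h.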

How the results depend on the processing

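The calls of AMT1;1 at 24 h and of its difference between 24 and 6 h, and the absence of calls at 6 h, held under every alternative run. With library totals in place of TMM, 3 of the 7 genes rather than 6 were called higher from 12 to 24 h in mock, with GLN2 at -0.0132, and between 6 and 12 h DIT1 (0.0759) and LFNR1 (0.107) turned to higher from lower. In the same setting the calls at 24 h after estradiol split into 2293 higher and 455 lower genes (1620 and 1257 in the main fit), and those of the mock comparisons into 11861 and 2887 (6472 and 5889), 3426 and 12598 (6911 and 7518) and 4797 and 7977 (6600 and 6133). Over all comparisons 11 calls of single genes, among the 7 and the genes picked for naming, were lost with library totals. Calls of the 7 at 12 h after estradiol are not in that number. Single libraries moved the number of the 7 called lower over 0 to 2 at 24 h and 0 to 1 for the difference of 24 and 6 h. At 12 h, in the contrast that helped to choose them, it ran over 1 to 5. That range only records how far calls hung on single libraries, and nothing is read from it. The cause of these shifts was not tested. In the main fit 6.54% of all tested genes were called lower at 24 h, 2% for the difference and 5.07% at 12 h. Values near 0 changed sign. At 6 h NIR1 (0.0045) went to -0.00253 with DESeq2 size factors, -0.00049 with upper-quartile scaling, -0.00244 in DESeq2 and -0.00349 in limma-voom, where NIA1 was -0.0044. Without 1 library the 6 h values ranged from -0.177 to 0.127 for NIA1, -0.0943 to 0.115 for NIR1, -0.0686 to 0.0956 for AMT1;1 and -0.102 to 0.167 for AMT1;2, and the differences of 24 and 6 h from -0.237 to 0.0804 for NIA2, -0.135 to 0.0505 for NRT1.1 and -0.0872 to 0.015 for GLN2. For that difference NRT1.1 was 0.0363 and GLN2 0.0411 with library totals, and GLN2 0.00373 with only the libraries of the contrast. ASN3, called lower in that difference in the main fit (-0.40, adjusted p = 0.0457), was not called in most alternatives. Replicate numbers are shared by the groups, but the deviations of libraries with the same number correlated only between -0.247 and 0.219, so the numbers were not taken as pairs. With a replicate block AMT1;1 at 24 h was 0.975 (adjusted p = 0.000162) and no count of the 7 genes changed, while CNX2 and UPM1 at 12 h, ASN2 at 24 h and ASN3 in the difference passed 0.05 (adjusted p = 0.0523, 0.0607, 0.0537 and 0.0621). Few reads limit AMT1;1 at 6 h (51 to 87 per library) and AMT1;2 at 12 h (48 to 254).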

Other observations

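In mock leaves the 83 tested genes of the wider nitrogen lists also moved with time. From 12 to 24 h 39 were called higher and 28 lower by edgeR, beside 35.9% and 39.1% of all tested genes, with a median log2 fold change of 0.15 (-0.0299 over all tested genes). The nitrate transporter NPF6.4 (5.79), the vacuolar anion transporter CLC-B (7.65), NPF6.2 (3.90) and SLAH3 (3.59) were higher at 24 h, with log2 fold changes as given. Of the ferredoxins FD1 was higher by 2.58, and FD2, the more abundant (mean log2 CPM 11.3 beside 8.31), by 1.33. In the opposite direction went the cytosolic glutamine synthetase GLN1;1 (-2.13), the glutamate dehydrogenase subunits GDH2 (-2.32) and GDH1 (-1.91) and the glutamate synthase GLT1 (-1.75). GLU1, the glutamate synthase that takes electrons from ferredoxin, was higher by 1.07. Against 6 h, 48 of the 83 were called higher and 18 lower at 24 h (34.3% and 31.9% of all tested genes, median 0.368), and 30 higher and 27 lower at 12 h (33.7% and 30.6% of all, median -0.0342). For the nitrate signalling list 17 of 25 tested genes were called higher and 2 lower at 24 h against 6 h, where 34.3% and 31.9% of all genes were called, among them the light-response factor HY5 (2.72) higher and BT2 (-3.18) lower. With library totals in place of TMM the median of all genes moved as given above for these comparisons, and the listed values move with it.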
